A study of Mus musculus with 34 samples.

Results

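Tandem 3′ splice sites that lie 3 bases apart were examined in mouse Neuro-2A (N2A) neuroblastoma cells treated with small molecules that alter microexon splicing. The rows were selected by their type and length alone: an alternative acceptor whose use adds exactly 3 nucleotides (nt) to the exon, measured from the most internal acceptor of the same event. Of 401633 splicing events of all types in the table, 2754 were such 3-nt acceptors. Of these, 1790 were covered in DMSO, meaning that at least 2 of the 3 DMSO libraries had a read coverage score of SOK, OK or LOW. For comparison, 15171 alternative acceptors of other lengths were covered in the same way. The 34 polyA+ RNA-Seq libraries came from cells treated for 24 h in a final 0.4% DMSO. They comprised 3 libraries of DMSO alone, 2 libraries each of the histone deacetylase (HDAC) inhibitors Vorinostat, CI-994, BRD6688 and BRD4884, and 1 library each of 23 further compounds. By the study's own screen, 17 of the 27 compounds were activators and 10 inhibitors of microexon splicing, and N2A is a single established line, so spread between libraries is spread between cultures or preparations of it.

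A 3′ splice site ends an intron with the dinucleotide AG, which is recognised by the smaller subunit of U2AF and then used in the second catalytic step of splicing. Where NAG is followed directly by a second NAG, the spliceosome can cut after either one. Use of the upstream AG keeps the extra NAG in the mRNA as 3 added exon bases, and use of the downstream AG removes it with the intron. In coding sequence the reading frame is therefore kept. The protein then differs by 1 residue or by a small substitution, unless the added bases create a stop codon. Such NAGNAG acceptors are among the most frequent forms of alternative splicing in mammals. Percent spliced-in (PSI) here is the percent of the event's junction reads that used the upstream acceptor, so a high PSI means that the 3-base longer exon predominated.

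The 3 added bases could be read for 1466 of the 1790 covered acceptors (81.9%) from annotated mouse transcripts. They ended in AG in 1460 of these. The last 3 intron bases could be read in addition for 235 acceptors, those for which another transcript of the gene runs through the splice site, and the motif NAGNAG was present in 232 of them. The sites below, from GENCODE vM21 transcripts (GRCm38), are the ones to which the results on single genes return. They run from the 3′ end of the intron into the exon, and the capitals mark the tandem acceptor, in which the first 3 capitals end the intron of the longer form and the last 3 are the added bases.
Fryl: cggttggctttctctctCAGCAGgcattaa
Cpsf4: agaactcttctcccaatCAGCAGagagccc
Pprc1: tcccttttcccccctgcCAGCAGcattgac
C630004H02Rik: tgagcagcctgcatcttTAGCAGggtgagg
Pcbp2: tgctcttttctgtctttTAGCAGgtttgga
Rg9mtd3: taagaaaatttgatttaCAGAAGgtgacat
Mrpl4: atacgccactgtccctgCAGGAGgtgtagc
They differ in the added triplet, which is CAG in the first 5, AAG in Rg9mtd3 and GAG in Mrpl4. For members whose intron end could not be read, the spliced mRNA of the longer form shows the added triplet in capitals at the exon junction.
Itgav: cagcacgtcctcCAGgatgtttctcctggt
Apbb2: cagatgaaacagCAGatatctggagtgatc
Mff: caaagcgaagagCAGagccgagcagttggc
Rbm8a: gctttggctccgAAGaggggtcccgagcgc

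In DMSO-treated cells, 3-nt acceptors were far more often used at an intermediate level than acceptors of other lengths. The mean PSI lay between 10 and 90 for 610 of 1790 members (34.1%), against 1067 of 15171 acceptors of other lengths (7.03%). The longer form predominated, with a PSI above 90, for 929 members (51.9%), and 251 members (14%) had a PSI below 10. Of these 251, 137 belonged to events with 3 or more acceptors, where a low PSI can also mean use of another acceptor. The median PSI was 91.3 with quartiles of 43.4 and 98.6. For other lengths the median was close, at 92.0, but 42.1% of acceptors lay below 10 and 50.8% above 90. The 3 DMSO libraries gave medians of 90.9, 91.1 and 91.7 and shares between 10 and 90 of 34.9%, 34.2% and 33%, so the difference from other lengths was many times the difference between libraries. The median SD between DMSO libraries was 1.29 PSI over all members and 3.44 over those between 10 and 90.

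**Figure D1:**
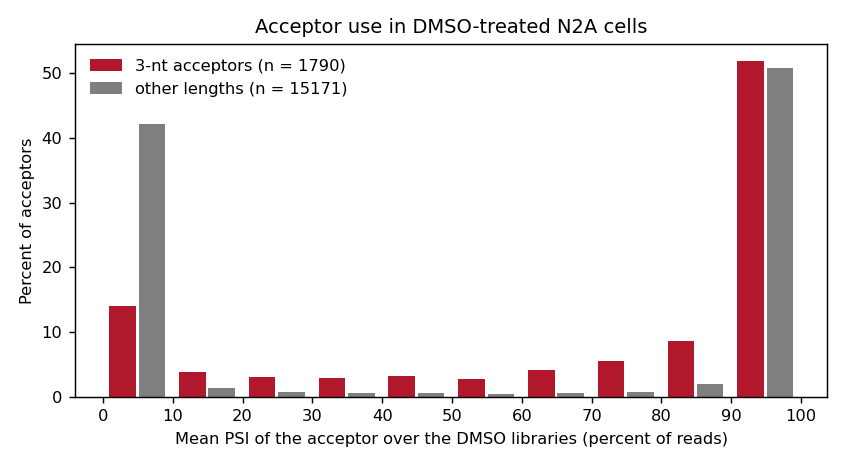
Histogram of mean PSI in DMSO in bins of 10 PSI (x axis) against the percent of acceptors in each bin (y axis), for the 1790 3-nt acceptors (red) and the 15171 acceptors of other lengths (grey). Other lengths pile up at both ends, whereas 34.1% of 3-nt acceptors lie between 10 and 90.

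The high share of intermediate use was not shared by neighbouring lengths. It was 3.23% for acceptors that add 2 nt, 4.92% for 4 nt, 4.21% for 5 nt, 8.74% for 6 nt, 8.11% for 9 nt and 10.4% for 12 nt. The next highest share, 12.9%, came from acceptors that add 1 nt, of which only 62 were covered. Most members, 1513 of 1790, belonged to events with exactly 2 acceptors, and their share was 36.2% with a median PSI of 93.4. The 277 members in events with 3 or more acceptors had a median PSI of 10.8 and a share of 22.4%.

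**Figure D2:**
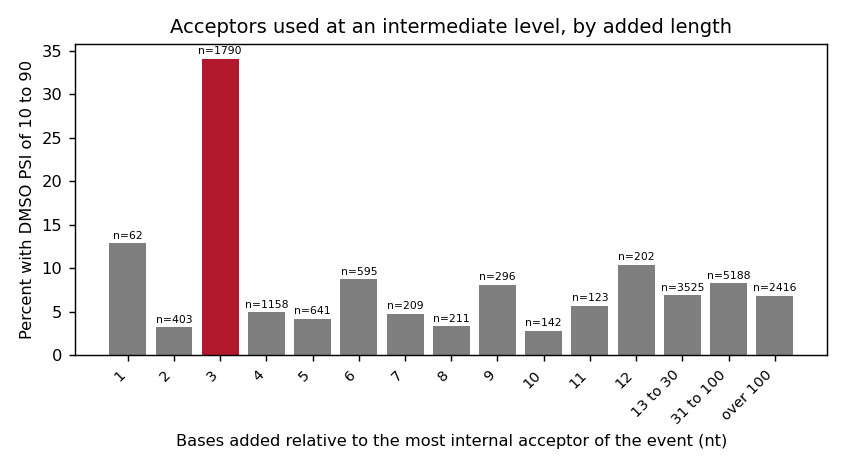
Percent of acceptors with a mean DMSO PSI of 10 to 90 (y axis) by the number of bases the acceptor adds (x axis, nt), with the number of acceptors above each bar and 3-nt acceptors in red. The bar for 3 nt stands at 34.1% and no other length passes 12.9%.

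PSI differed in order with the added triplet. Members that add CAG had a median PSI of 77.4 (n = 591) and 65.3% of them lay between 10 and 90. Those that add TAG had a median of 87.5 (n = 103) and a share of 48.5%. With AAG the median was 97.9 (n = 467) and the share 15%, and with GAG the median was 99.7 (n = 299) and the share 2.68%. A high PSI means that the downstream copy was little used, which was the case for nearly all downstream GAG copies and less so for downstream CAG copies, although the upstream copy predominated in most members of each kind. In the 235 members with a readable intron end, PSI was also ordered by the upstream triplet. The median PSI was 91.1 where the upstream triplet was CAG (n = 157), 93.6 where it was TAG (n = 57), 39.1 where it was AAG (n = 15) and 0.2 where it was GAG (n = 4). For the exact repeat CAGCAG, in which both acceptors have the same 3 bases, the median PSI was 64.3 (n = 76, quartiles 36.8 and 90.2), so the upstream copy was used more often than the downstream copy in most of them.

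Annotation limits these values, because the added triplet can be read only where the longer form is annotated. The 184 members for which only the shorter form was annotated had a median PSI of 6.7, and the 111 with neither form matched had a median of 0.6. Among the 540 members with both forms annotated, the order by added triplet was kept for the share between 10 and 90, at 81.1% for CAG (n = 381), 59.3% for TAG (n = 54), 50% for AAG (n = 84) and 5.56% for GAG (n = 18). Their medians were 63.7, 68.7, 86.6 and 99.2.

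By position in the transcript, 1347 members lay in coding sequence, 86 in a 5′ UTR, 8 in a 3′ UTR and 25 in noncoding transcripts. The share between 10 and 90 was 33.3% in coding sequence and 55.8% in 5′ UTRs, with median PSI of 95.3 and 78.6. In coding sequence the codon phase is the number of bases of a codon that precede the splice site. In phase 0 the added bases form a whole codon, and in phases 1 and 2 they fall across codons. The share between 10 and 90 was 27.2% in phase 0 (n = 584), 35.8% in phase 1 (n = 547) and 43.1% in phase 2 (n = 216).

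Acceptors with a PSI near 50 in DMSO, with at least 200 reads in each DMSO library, illustrate how stable such a level was. Of those below, Nolc1, Pprc1 and Cpsf4 lie in events with 3 or more acceptors. Their remaining reads can fall on several acceptors. In Nolc1, which encodes a nucleolar phosphoprotein, PSI was 52.81, 48.61 and 49.30 in DMSO and 46.15 to 54.72 over the 31 compound libraries, and no compound was called. In Pitrm1, a mitochondrial peptidase, it was 48.45, 49.00 and 47.19 in DMSO and 42.47 to 51.98 with compounds. In Ppp3cb, a catalytic subunit of calcineurin, with the added triplet TAG, it was 48.04, 48.10 and 49.71 in DMSO and 41.42 to 55.35 with compounds. These 3 acceptors were called in none of the 27 compounds. Pprc1, a coactivator related to PGC-1, was not called either, with 42.54 to 60.18. Cpsf4, a subunit of the cleavage and polyadenylation complex, and Mff, a mitochondrial fission factor, were each called in 1 compound, with compound libraries at 43.18 to 61.46 and 37.10 to 54.85.

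Among the most deeply covered acceptors that were called in no compound were those of Pcbp2, Rbm8a, Nars and Gnb1. Pcbp2, a poly(C)-binding protein, had a DMSO PSI of 76.30, 76.93 and 76.09 and lay between 73.78 and 78.55 in all 31 compound libraries. Rbm8a, a core protein of the exon junction complex, had 52.25, 53.78 and 51.20 in DMSO and 50.33 to 56.98 with compounds. Nars, a tRNA synthetase, lay at 61.61 to 66.05 over compound libraries against a DMSO mean of 65.9, and Gnb1, a G protein subunit, at 21.92 to 27.80 against 23.9. These acceptors were chosen for not having been called, so their small range is a description.

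Each compound was then compared with DMSO by the rule of the study's methods: a mean difference of at least 10 PSI with a posterior probability above 0.95 that the change has that direction. This call takes its error from reads and, where a condition has several libraries, from their spread. Summed over 27 compounds, 1023 of 46311 pairs of a member and a compound were called (2.21%), 443 with higher (background 0.599%) and 580 with lower PSI (background 0.589%). The background in either direction over all alternative acceptors was 1.19%, and acceptors of other lengths gave 1.07%. At least 1 compound was called for 420 of 1790 members (23.5%, background 12.5%). Of these, 184 were called in 1 compound, 47 in 5 or more, and 68 in both directions. All comparisons share the same DMSO libraries, so calls of 1 acceptor in many compounds are not independent of each other. With 1 DMSO library left out, the sum was 1391 to 1497.

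The comparison with other lengths depended on the starting level. Below 10 or above 90, the call rate was 0.649% for members and 0.435% for other lengths. Among acceptors with a DMSO PSI of 10 to 90, the call rate was 5.27% for members (824 of 15627 pairs) and 9.95% for other lengths (2605 of 26192 pairs). Members had the lower rate in each of the 27 compounds within this band, and over all starting levels the higher rate in each of them. The median absolute difference from DMSO within the band was 2.69 to 4.48 PSI for members, depending on the compound, and 3.53 to 6.06 for other lengths. The median signed difference of members was between -1.39 (T5985871) and 0.73 (7678804). The mean PSI of members covered in every library ran from 57.16 to 57.78 in DMSO and from 56.26 to 58.14 with compounds. It lay below the DMSO libraries in both Vorinostat libraries, at 56.36 and 56.56, in T5985871 at 56.32, in AW00693 at 56.34 and in T5758020 at 56.26, among others.

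**Figure D3:**
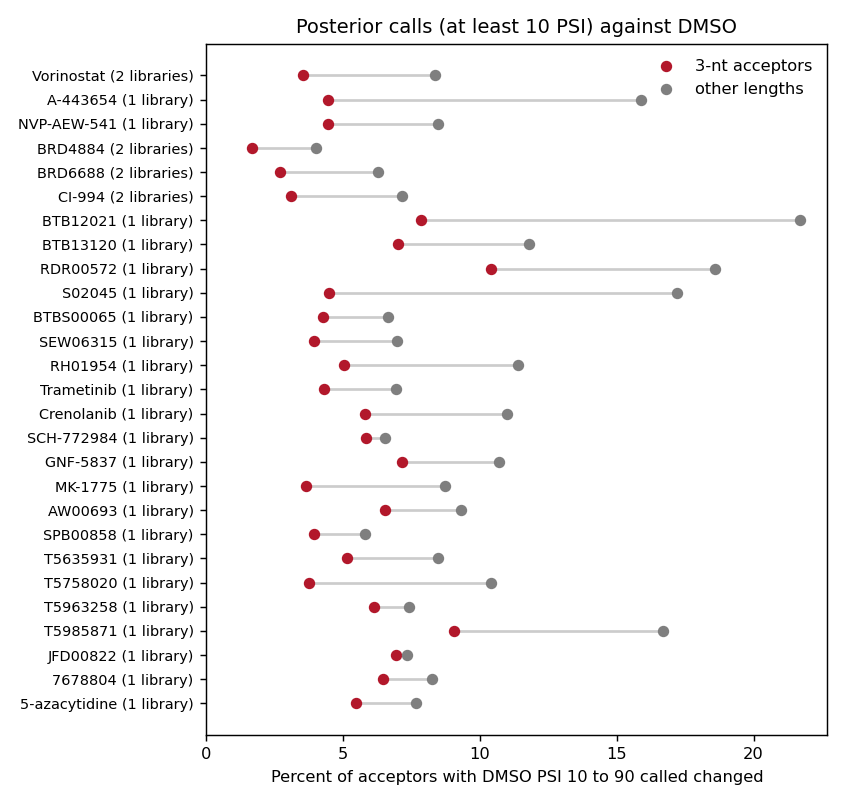
Percent of acceptors with a DMSO PSI of 10 to 90 that were called changed (x axis) in each of 27 compounds (y axis, with the number of libraries), for 3-nt acceptors (red) and other lengths (grey). The red point lies left of the grey point in every row, with 1.67% to 10.4% for 3-nt acceptors and 4% to 21.7% for other lengths.

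Read depth moved with the call rate. Among members between 10 and 90, the rate was 9.43% where the shallowest DMSO library had under 50 reads (164 acceptors), 6.56% from 50 to 99 reads, 5.23% from 100 to under 200 reads, and 1.03% with 200 reads or more (172 acceptors). For other lengths it went from 12.8% to 5.83% over the same range. At 200 reads or more, 31 of 172 members were called in at least 1 compound (18%), against 100 of 215 acceptors of other lengths (46.5%). The part of counting error in the calls of shallow members was not tested.

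**Figure D4:**
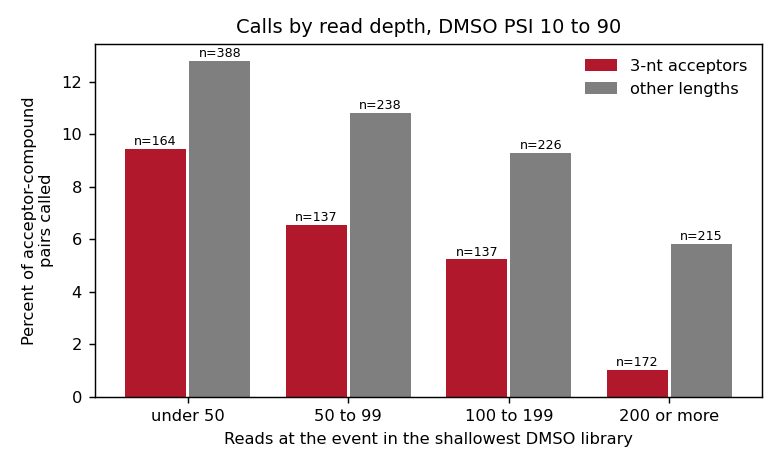
Percent of acceptor-compound pairs called (y axis) by the number of reads in the shallowest DMSO library (x axis), for acceptors with a DMSO PSI of 10 to 90, 3-nt in red and other lengths in grey, with the number of acceptors above each bar. The rate of 3-nt acceptors falls from 9.43% to 1.03% and that of other lengths from 12.8% to 5.83%.

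A second test, limma on the log odds of acceptor use, took its error from the spread between replicate libraries of all conditions and was adjusted by the Benjamini-Hochberg method over all acceptors tested in a compound. Among members, 21 pairs passed an adjusted p of 0.05 together with 10 PSI, in 16 of 1645 members tested. The background was 0.102% of pairs and 1.79% of acceptors. Of these, 7 had a higher and 14 a lower PSI. They fell in 6 compounds, with 9 of 1505 members tested in T5985871 (background 0.875%) and 4 of 1600 in A-443654 (0.388%). Vorinostat had 3 of 1555 (0.0886%), RDR00572 2 of 1567 (0.333%), S02045 2 of 1589 (0.423%) and CI-994 1 of 1583 (0.0555%). In the other 21 compounds limma called 0 members, and the posterior rule called 13 or more in each. Over all compounds, members with an unadjusted limma p below 0.05 ran from 84 of 1607 (BTBS00065) to 193 of 1624 (BRD6688). Without any change, a share of 0.05 of the tests would also fall below 0.05. The limma background in these 21 was 0.0308% for BRD6688, 0.452% for BTB12021, 0.0157% for BTB13120, 0.0237% for RH01954, 0.0391% for MK-1775, 0.0157% for AW00693, 0.0078% for T5635931, 0.0233% for T5758020 and 0.00775% for 5-azacytidine, and 0% for the rest. For the 23 compounds with 1 library, limma assumes that the library varies as the replicated conditions do.

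Among the limma calls in HDAC inhibitors, the smallest adjusted p was that of Ncam1, the neural cell adhesion molecule, with Vorinostat. The event lies on mm9 chromosome 9, minus strand, where the exon starts at position 49331754 in the longer form and at 49331751 in the shorter form. PSI was 62.60, 65.70 and 66.74 in DMSO and 36.53 and 29.85 in the Vorinostat libraries, with 321 to 948 reads in each. The groups did not overlap, and the difference was -31.8 PSI (limma adjusted p = 0.000459). Among the other HDAC inhibitors, CI-994 had 58.95 and 55.50, BRD6688 60.45 and 56.97, and BRD4884 63.57 and 62.97, none of them called. The lowest of the 23 single libraries was 5-azacytidine, an inhibitor of DNA methylation, at 45.29, and the highest was AW00693 at 76.58. Only the shorter form of the Ncam1 site matched an annotated transcript by intron length, so its triplet is not given, and whether the 3 added bases come from a tandem acceptor or from a separate very short exon could not be settled here.

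C630004H02Rik, now named Hid1, a protein of the Golgi and of dense core vesicle formation, carries TAGCAG in coding sequence. Its PSI was 36.99, 36.00 and 38.98 in DMSO. Both Vorinostat libraries lay lower, at 24.18 and 23.59 (limma adjusted p = 0.035), as did both CI-994 libraries at 25.27 and 23.16 (limma adjusted p = 0.0248). BRD6688 had 25.96 and 25.06 and BRD4884 32.54 and 30.38, and limma called neither. Over all compound libraries, 28 of 31 lay below the lowest DMSO library, down to 23.16, and 10 compounds were called by the posterior rule, each with a lower PSI.

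In Acsl4, an acyl-CoA synthetase with a preference for arachidonate, PSI was higher with Vorinostat and with A-443654. The Acsl4 event has 3 or more acceptors, so this need not be a shift between the acceptors 3 bases apart. PSI was 49.51, 44.60 and 42.99 in DMSO, 60.32 and 59.02 with Vorinostat (limma adjusted p = 0.0412) and 63.53 with the kinase inhibitor A-443654 (95% Wilson interval 58.8 to 68.0, limma adjusted p = 0.0206). CI-994 had 49.88 and 52.01, both above the highest DMSO library. All libraries of Acsl4 had over 200 reads. Intervals given here cover counting error only.

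By the posterior rule, Vorinostat was called for 26 of 1683 members tested (1.54%, background 0.863%), CI-994 for 22 (1.28%, background 0.763%), BRD6688 for 20 (1.13%, background 0.622%) and BRD4884 for 13 (0.739%, background 0.402%). These counts rose when either library was left out, to 44 and 51 for Vorinostat, 42 and 69 for CI-994, 48 and 53 for BRD6688 and 37 and 43 for BRD4884. With 1 DMSO library left out they were 37 to 40, 29 to 36, 26 to 36 and 21 to 34 in the same order. The members named next were chosen because both libraries of an HDAC inhibitor lay beyond all 3 DMSO libraries in the direction of a call. Beside Ncam1, those with the largest differences were in Tbc1d4, a Rab GTPase-activating protein of glucose transport (18.6 ± 4.7 SD, n = 3, in DMSO and 61.32 and 42.62 with Vorinostat), and in the zinc finger gene Zkscan3 (55.8 ± 13.4 in DMSO, 90 and 81.05 with BRD6688). The next were Mbd6, a methyl-CpG-binding domain protein (63.3 ± 5.8 in DMSO, 43.75 and 37.21 with BRD4884), and Lsm7, a subunit of the Lsm ring of U6 snRNP (54.2 ± 5.3 in DMSO, 78.99 and 70.03 with BRD6688). None of these 4 passed limma, with adjusted p of 0.192, 0.303, 0.612 and 0.448. Reads in the 2 compound libraries were 29 and 81 for Tbc1d4 and 70 and 95 for Zkscan3. They were 32 and 43 for Mbd6 and 36 and 56 for Lsm7. With scores SOK or OK only, the Tbc1d4 difference was 24.0 PSI instead of 33.4. The Lsm7 event has 3 or more acceptors. The call of Mbd6 was lost without BRD4884 B, at -19.5 PSI. In Mbd6 the 2 Vorinostat libraries lay on either side of DMSO, at 29.79 and 70.97.

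Further members of that kind had both HDAC inhibitor libraries below DMSO. Ache, acetylcholinesterase, had 41.07, 50.79 and 53.12 in DMSO with 32 to 63 reads, and 31.91 and 26.88 with CI-994. Zc3h11a, a zinc finger protein of mRNA export, had 84.81, 97.42 and 88.05 in DMSO and 69.57 and 76.80 with Vorinostat. Apbb2, an adaptor that binds the amyloid precursor protein, had 38.88, 47.93 and 44.16 in DMSO and 21.54 and 32.89 with Vorinostat. Its difference of -16.4 PSI was -10.8 and no longer called without Vorinostat A, and the call was also lost without DMSO B (-14.3). Cdca7l had a DMSO mean of 65.8 and 52.14 and 48.07 with BRD4884, and 2700050L05Rik, now Edrf1, a DMSO mean of 85.1 and 64.52 and 69.89 with BRD6688. The limma adjusted p of these 5 lay between 0.171 and 0.608.

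The HDAC inhibitors BRD6688 and BRD4884, used at the same concentration, were compared directly. Of 1842 members tested, 12 had a higher and 17 a lower PSI with BRD6688 by the posterior rule, 1.57% in all against a background of 0.749%. limma called 0 of 1611 members tested, with 153 at an unadjusted p below 0.05, where no change at all would give a share of 0.05. For the 590 members between 10 and 90 in DMSO, the difference between these compounds had a median of 0.06 PSI, and 90% of them lay from -9.0 to 10.2 PSI.

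In single-library compounds, the posterior rule called 27 to 69 members each, with a median of 37. RDR00572 had the most, 69 of 1694 (4.07%, background 2.21%), and T5985871 had 66 of 1629 (4.05%, background 2.62%). The number of members called, with the background share of all acceptors in brackets, was as follows for the other activators: A-443654 34 (1.86%), NVP-AEW-541 34 (0.881%), BTB12021 49 (2.27%), BTB13120 50 (1.26%), S02045 33 (1.7%), BTBS00065 27 (0.842%), SEW06315 33 (0.871%), RH01954 35 (1.24%), Trametinib 33 (0.789%), Crenolanib 37 (1.08%), SCH-772984 37 (0.811%) and GNF-5837 50 (1.26%). For the other inhibitors it was MK-1775 33 (1.21%), AW00693 48 (1.37%), SPB00858 27 (0.745%), T5635931 34 (0.973%), T5758020 33 (1.27%), T5963258 42 (0.973%), JFD00822 50 (1.15%), 7678804 43 (1.03%) and 5-azacytidine 45 (1.12%). In each compound the members' share lay above the background. A deeply covered call was in Immt, which organises the inner mitochondrial membrane. With 766 to 2766 reads in each library, PSI was 39.69, 38.02 and 45.77 in DMSO, 52.63 with A-443654 (95% Wilson interval 50.5 to 54.8, limma adjusted p = 0.0187) and 28.86 with S02045 (26.8 to 31, limma adjusted p = 0.0371). A-443654 was the highest and S02045 the lowest of all 34 libraries. The Immt event has 3 or more acceptors.

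Uspl1, a SUMO isopeptidase, had 5.19, 9.17 and 9.84 in DMSO and 34.42 with A-443654 (95% Wilson interval 28.4 to 41.0, limma adjusted p = 0.00165), while the other 30 compound libraries lay between 2.44 and 15.16. Mrpl4, a mitochondrial ribosomal protein with CAGGAG, fell from 82.73, 83.32 and 79.68 in DMSO to 63.21 with RDR00572 (95% Wilson interval 54.8 to 70.9, limma adjusted p = 0.0209) and 70.28 with T5985871 (63.7 to 76.1, limma adjusted p = 0.0377). The posterior rule called Mrpl4 in 6 compounds, and SEW06315, which limma did not call, had 66.55. In 23 of 24 Mrpl4 libraries with at least 10 and under 200 reads, the reads were not whole numbers. The events of Uspl1 and Mrpl4 have 3 or more acceptors.

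Fsd1l, with the added triplet AAG, had a raised PSI in 5 microexon inhibitors. It was 10.16, 12.08 and 19.72 in DMSO, 40.69 with AW00693, 37.10 with T5635931, 32.47 with T5758020, 32.77 with T5963258 and 42.79 with T5985871. The other 26 compound libraries lay between 1.47 and 18.92, so these 5 stood above all others. All 5 were called by the posterior rule, and limma called T5985871 alone (adjusted p = 0.0417). The posterior rule also called a lower Fsd1l PSI in 2 compounds, and 17 of 31 compound libraries lay below the lowest DMSO library. In 25 of 29 Fsd1l libraries with at least 10 and under 200 reads, the reads of the longer form were not whole numbers, since the authors' tool scales them for mappability.

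**Figure D5:**
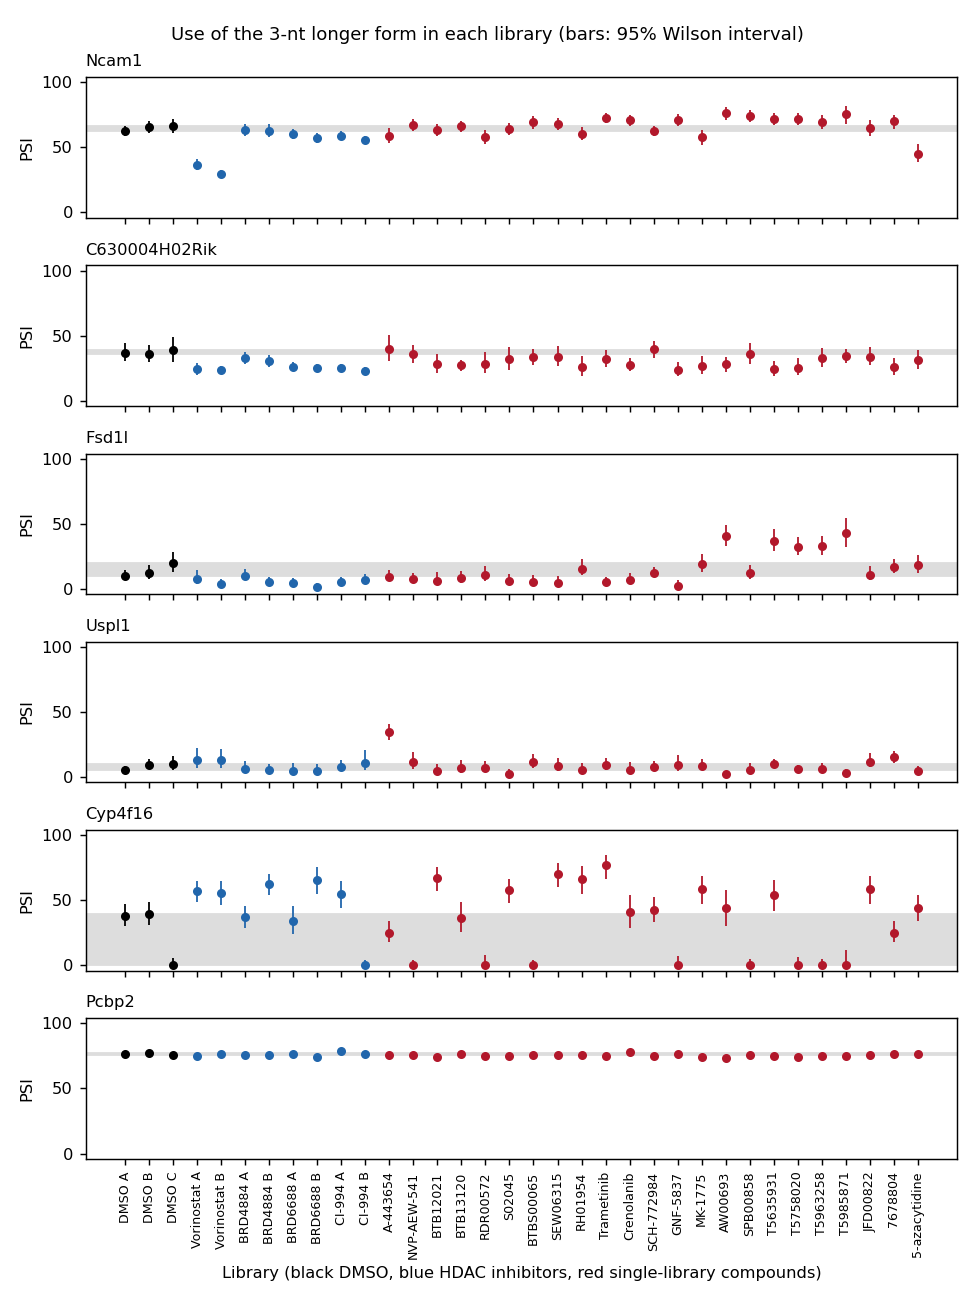
PSI (y axis) of 6 acceptors in each of the 34 libraries (x axis), DMSO in black, HDAC inhibitors in blue and single-library compounds in red, with 95% Wilson intervals as bars and the range of the 3 DMSO libraries in grey. Ncam1 is lowest in both Vorinostat libraries, Fsd1l is raised in 5 compounds, Uspl1 in A-443654, and Pcbp2 stays between 73.78 and 78.55, whereas Cyp4f16 is at 0 or at 25.18 and above in DMSO and compounds alike.

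Some members were called in many compounds with few reads or an uneven control. Rg9mtd3, now Trmt10b, a tRNA methyltransferase with CAGAAG, had 100, 97.70 and 100 in DMSO with 39, 46 and 23 reads. It was called in 11 of 23 compounds, each with a lower PSI, down to 22.79 of 34 reads with S02045 (95% Wilson interval 11.9 to 39.2, limma adjusted p = 0.0326) and 30.46 of 49 reads with T5985871 (19.4 to 44.4, limma adjusted p = 0.0215). Its replicates were discordant elsewhere, with BRD4884 at 100 and 40.68 and BRD6688 at 100 and 11.95, of which the 2 lower libraries did not pass the coverage filter. limma left out libraries below the filter, so its p-values for Rg9mtd3 do not include this spread. Cyp4f16, a cytochrome P450, had 38.25, 39.33 and 0 in DMSO, where 0 of 66 reads allows a PSI of up to 4.55. It was at 0 in 10 of 34 libraries and at 25.18 or more in the rest, and it was called upward in 4 and downward in 7 compounds. Rpl10a, a ribosomal protein, had 15.02, 54.12 and 51.22 in DMSO, so the DMSO A library stood apart from the other DMSO libraries, and Rpl10a was called upward in 2 compounds.

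Fryl, with the exact repeat CAGCAG, and Itgav, integrin alpha V, were each called in 11 of 27 compounds in 1 direction. Fryl had 56.25, 64.66 and 58.62 in DMSO, and 26 of 31 compound libraries lay above the highest of these, up to 89.47 with T5963258 (95% Wilson interval 80.6 to 94.6, limma adjusted p = 0.333). Itgav had 61.01, 60.22 and 60.30 in DMSO, and 30 of 31 compound libraries lay below the lowest of these, down to 38.60 with BTBS00065 (95% Wilson interval 29.2 to 48.9, limma adjusted p = 0.594). The SD of Itgav in DMSO was 0.4 PSI, against a median of 3.44 for members between 10 and 90. Ache and Apbb2 were called in 10 compounds each, all with a lower PSI, and limma called neither. Rbak, a KRAB zinc finger gene, was called upward in 12 of 24 compounds from a DMSO PSI of 16.44, 7.09 and 17.07 with 81, 29 and 18 reads. Trim11, a ubiquitin ligase, was called in 8 compounds upward and 2 downward, and 4930547N16Rik, now Parpbp, in 2 upward and 8 downward.

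Among single-library calls with at least 40 reads in that library and in each DMSO library, further large differences were a lower PSI of 4932438A13Rik with SEW06315 (35.85 against a DMSO mean of 66.9) and of Trip10, a Cdc42-interacting protein, with SCH-772984 (23.68 against 50.4). Bend7 was lower with GNF-5837 (28.17 against 54.5), and Chd7, a chromatin remodeller, was higher with 5-azacytidine (58.06 against 29). None of these passed limma, with adjusted p from 0.437 to 0.953.

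The remaining limma calls were of acceptors at an extreme in DMSO. Xrcc3, a protein of homologous recombination, was at 0 in all 3 DMSO libraries and at 34.6 of 26 reads with T5985871 (limma adjusted p = 0.0472). Its 53, 38 and 30 DMSO reads allow a PSI of up to 5.66, 7.89 and 10.0. The next highest library that passed the coverage filter was MK-1775 at 16.13. The Xrcc3 event has 3 or more acceptors. 5730419I09Rik, now C2cd5, and Gls2, a glutaminase, Rufy2 and Tacc2 fell from DMSO means of 100, 99.7, 93.8 and 97.0 to 82.3, 83.3, 76.7 and 80.2 with T5985871 (limma adjusted p of 0.0129, 0.0245, 0.0325 and 0.0278). Lztr1, an adaptor of a ubiquitin ligase for Ras proteins, was at 87.1 with RDR00572 against 100 in DMSO (limma adjusted p = 0.0204), and Herc3, a ubiquitin ligase, at 82.8 with A-443654 against 98.9 (limma adjusted p = 0.0406). These 7 rest on 26 to 86 reads in the compound library.

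Call rates within the band of 10 to 90 by added triplet were 5.08% for CAG (386 acceptors), 2.99% for TAG (50), 5.39% for AAG (70) and 7.37% for GAG (8 acceptors only). The difference between these rates was not tested.

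Factors that choose and use the 3′ splice site were examined at the level of mRNA, with 1 RPKM value for each condition and thus no test. The list held 27 genes, among them the U2AF subunits, the SF3A and SF3B subunits, Puf60 and the second-step factors Slu7, Prpf18 and Cdc40. Of 702 gene-compound pairs, 34 passed 2-fold (4.84%, background 6.53%), 30 lower and 4 higher than DMSO. Of the lower ones 29 were in HDAC inhibitors. The background of 6.53% is summed over all 27 compounds and both directions, so it is not a background for HDAC inhibitors alone. Among the treatments, the paper describes HDAC inhibitors as having the broadest effect on gene expression. Whether these factors were lowered more often than other genes within HDAC inhibitors was not tested. U2af1, the subunit that contacts the AG, was at 222.11 RPKM in DMSO, 72.35 with Vorinostat, 69.32 with CI-994 and 110.05 with BRD6688. U2af2, which binds the polypyrimidine tract, was at 144.12 in DMSO, 43.29 with Vorinostat and 42.22 with CI-994. The 4 higher pairs were Puf60, Dhx38, Sde2 and Sf3b4, all with T5985871. Whether these levels play a part in any acceptor's change was not tested.

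The spread between replicate libraries was described by a chi-square of member reads. Per degree of freedom it was 2.02 among DMSO libraries, 2.17 for Vorinostat, 2.40 for BRD4884, 2.78 for BRD6688 and 2.83 for CI-994. Counting error alone gives 1 for whole counts. These reads are scaled for mappability, and the part of counting error in these values was not tested. Reads on members numbered 408323 to 945867 per library, with 1644 to 1852 members covered, and DMSO C was the shallowest DMSO library at 462276. No 2 libraries held identical reads.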

How the data were processed

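RNA was polyA-selected from N2A cells, and libraries were made with the Illumina TruSeq RNA kit v2. The authors quantified splicing with vast-tools on mm9, and the deposited table gives, per library, PSI in percent and a quality string with coverage scores and with reads of each form that the tool scales for mappability (unit other, not whole counts). The deposited expression table holds the authors' RPKM, 1 value per condition. The submitters' processing notes also name Salmon 0.10.2 and edgeR. Compound names and screen classes were taken from the study's tables by library code. Replicate letters come from the labels. The study describes 2 biological replicates for DMSO and for each HDAC inhibitor, while 3 DMSO libraries are listed and used here, and how the 3 relate is not given in the sources used here, so part of the DMSO spread may be technical.

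Members were rows of the alternative acceptor class with a length of 3 nt. The members and lists were chosen with earlier results of these data known. PSI equals the reads of the form over all reads of the event. In events with 3 or more acceptors a change in PSI need not be a shift between the acceptors 3 bases apart. A condition was covered where its only library, at least 1 of 2 or at least 2 of 3 scored SOK, OK or LOW. The posterior rule used a uniform beta prior per library, joined libraries into 1 beta distribution, and required 10 PSI and a probability above 0.95. limma 3.58.1 (R 4.3.3) was run on log odds (0.5 added to each form, weights from reads, at least 10 reads of each form) over 13159 acceptors in 34 libraries, with Benjamini-Hochberg adjustment. Both calls were run on simulated whole counts with a fixed spread between libraries, for acceptors covered in every library. The outcome is not given here, and such counts differ from the scaled reads of shallow acceptors. RPKM ratios used a pseudocount of 0.5 and genes above 5 RPKM. Introns were matched to GENCODE vM21 by chromosome, strand, gene and intron length, since coordinates are mm9. Named acceptors were those called in an HDAC inhibitor with both libraries beyond DMSO (10 largest), called in most compounds (10), largest in single libraries with at least 40 reads (10), nearest 50 with at least 200 DMSO reads (6), and deepest without a call (5), to which the limma calls were added after their values were seen. Python 3.11.15 and scipy 1.17.1 were used. Values of 2 of the acceptors these rules chose are not reported here.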

Additional observations from a re-analysis of the deposited data

How the results depend on the processing

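The number of 3-nt acceptors called fell with a stricter rule. With a limit of 15 PSI it was Vorinostat 11, A-443654 19, NVP-AEW-541 18, BRD4884 8, BRD6688 12, CI-994 12, BTB12021 29, BTB13120 26, RDR00572 35, S02045 17, BTBS00065 17, SEW06315 16, RH01954 20, Trametinib 12, Crenolanib 19, SCH-772984 20, GNF-5837 26, MK-1775 12, AW00693 22, SPB00858 10, T5635931 17, T5758020 13, T5963258 19, T5985871 37, JFD00822 29, 7678804 16 and 5-azacytidine 18, with a sum of 510 and 242 distinct acceptors. With a posterior above 0.99 it was Vorinostat 7, A-443654 21, NVP-AEW-541 8, BRD4884 1, BRD6688 3, CI-994 5, BTB12021 13, BTB13120 21, RDR00572 24, S02045 10, BTBS00065 7, SEW06315 12, RH01954 11, Trametinib 11, Crenolanib 12, SCH-772984 10, GNF-5837 27, MK-1775 9, AW00693 15, SPB00858 8, T5635931 11, T5758020 9, T5963258 13, T5985871 29, JFD00822 15, 7678804 10 and 5-azacytidine 18, with a sum of 340 and 217 distinct. With limma over 34 libraries and Benjamini-Hochberg adjustment it was 3 for Vorinostat, 4 for A-443654, 1 for CI-994, 2 for RDR00572, 2 for S02045, 9 for T5985871 and 0 for the other 21 compounds, with a sum of 21 and 16 distinct. Without a coverage filter it was NVP-AEW-541 57, MK-1775 50, T5985871 100 and 7678804 67, the median DMSO PSI was 88.7 and the share between 10 and 90 was 37.3%. With scores SOK or OK only, BRD4884 had 8. With events of 2 acceptors only, the median was 93.4 and the share 36.2%. With at least 100 reads in each library, an alternative chosen after seeing the data, the sum was 383 with 180 distinct, and the Apbb2 call with Vorinostat was lost (-10.5 PSI).

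Leaving out 1 library at a time gave 5-azacytidine 52 to 70, 7678804 50 to 69, A-443654 47 to 56, BRD4884 21 to 43, BRD6688 26 to 53, BTBS00065 41 to 51, CI-994 29 to 69, JFD00822 67 to 79, MK-1775 45 to 61, NVP-AEW-541 46 to 54, S02045 48 to 55, SCH-772984 56 to 62, SEW06315 44 to 50, SPB00858 45 to 49, T5635931 45 to 55, T5758020 43 to 57, Trametinib 46 to 50 and Vorinostat 37 to 51. The sum was then 1391 to 1497 and the distinct acceptors 469 to 505. The cause was not tested. Same-letter correlations with DMSO over 480 acceptors ran from -0.10 to 0.07. These values carry counting error and stand without different-letter values beside them. They therefore cannot settle whether replicate letters pair the samples. With limma on 11 libraries without the replicate block, Vorinostat had 3, BRD4884 0, BRD6688 0 and CI-994 1 calls, and with the replicate block they had 1, 0, 0 and 0. Of 28 named differences, limma kept 5 and no longer called 23, and each of the 28 kept its direction. No result changed direction in any alternative run. The count of 3′ splice site factors past 2-fold kept within 1.5 times with a pseudocount of 1 RPKM and with genes above 1 RPKM.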
